A study of Mus musculus with 3 samples.

Results

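The proteasome genes of mouse macrophages are described here, with the catalytic subunits of the constitutive proteasome set against those of the immunoproteasome. A gene was included when its symbol starts with Psma, Psmb, Psmc, Psmd, Psme, Psmf or Psmg and at least 1 of its transcripts is annotated as protein-coding. This rule took 50 of 21901 genes with such a transcript, and 49 of the 50 have a known role in the proteasome or its assembly. The exception, Psmc3ip, codes for a meiotic recombination factor that shares only the start of its symbol. Cytosolic RNA was taken from C57BL/6J bone-marrow-derived macrophages stimulated with 100 ng/ml lipid A, the TLR4-activating part of bacterial lipopolysaccharide, for 25 minutes. Ribosomal RNA was depleted and 1 µg of RNA entered each library. The 3 libraries are biological replicates of 1 group and carry the same donor record, with age and sex not collected. Nothing in the labels says that they came from separate animals, so the spread between them may be technical. No unstimulated cells were analysed here, so the values describe levels 25 minutes after lipid A and no response to it.

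The proteasome is the protease that degrades proteins tagged with ubiquitin. Its core particle, the 20S proteasome, is a barrel of stacked rings of alpha and beta subunits, and 3 of the beta subunits carry the active sites. The 19S regulatory particle binds ubiquitin, unfolds the substrate with a ring of ATPases and feeds it into the barrel. In cells exposed to interferons, the immune subunits Psmb8, Psmb9 and Psmb10 can take the places of Psmb5, Psmb6 and Psmb7, and the resulting immunoproteasome is known for producing peptides for presentation on MHC class I. Macrophages are antigen-presenting cells and are known to carry immune subunits before any infection.

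At a level of 1 TPM or more in each of the 3 libraries, 47 of the 50 genes were detected, against 41.3% of nuclear protein-coding genes (9084 of 22015). TPM is the deposited unit, which corrects for transcript length and is scaled to a fixed sum per library. The median of the detected proteasome genes lay at the 79.0th percentile of all detected genes, whose median level was 7.79 TPM. Together the 50 genes held 0.513, 0.498 and 0.512% of the TPM of nuclear protein-coding genes in replicates 1 to 3. By the medians of these groups, the core particle stood above the 19S particle and the assembly chaperones stood below both.

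Library totals were 53055764, 43620362 and 38623777 expected counts in replicates 1 to 3. Nuclear protein-coding genes took 22.7, 22.9 and 29.8% of TPM, and a larger coding share scales the TPM of coding genes up. Ratios between genes are therefore taken within libraries, and fold changes between libraries after scaling. The TPM values, their sums and their SDs are not rescaled and include this difference between libraries. All 10 macrophage markers were at 1 TPM or more, with summed levels of 5562, 5449 and 8569 TPM. Of the markers of T and NK cells, B cells, red cells and stromal cells, none of the 14 reached 1 TPM. Among 4 neutrophil markers, S100a8 and S100a9 did, and the 4 summed to 25.7, 42.7 and 29.9 TPM, highest in replicate 2, while the defining neutrophil gene Ly6g stood at 0.00, 0.03 and 0.00 TPM.

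**Figure D1:**
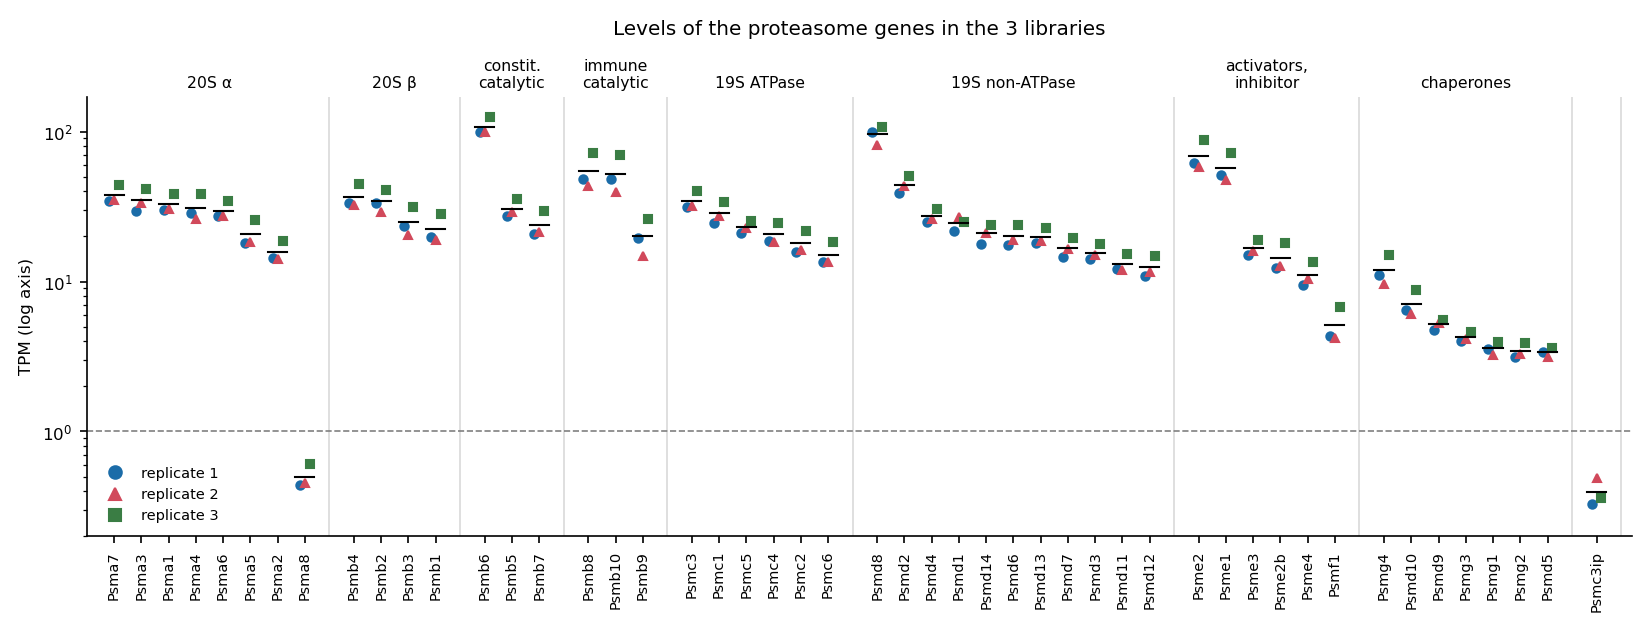
TPM (log axis) of each proteasome gene in replicates 1 to 3, by role. Horizontal bars are means, the dashed line is 1 TPM, and Psmb11 is not drawn because it is at 0. Psmb6 and Psmd8 stand above the other subunits of their particles, and Psma8 and Psmc3ip lie below the dashed line.

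The 14 constitutive subunits of the core particle had median levels of 27.9, 28.1 and 36.9 TPM in replicates 1 to 3. Among the alpha subunits, which form the outer rings and the gate of the barrel, Psma7 was highest at 34.7, 34.8 and 44.2 TPM. Psma2 was the lowest of the 7 detected alpha subunits at 14.4, 14.2 and 18.7 TPM. The lowest Psma7 value was above the highest Psma2 value, so these genes do not overlap. The other 5 had means between 20.7 ± 4.22 TPM (Psma5) and 34.8 ± 6.19 TPM (Psma3; SD, n = 3), within the range set by Psma2 and Psma7. Psma2 shares its locus on the same strand with AW209491, which stood at 1.77 ± 0.36 TPM, so its reads may be split between the genes.

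Psma8, an alpha subunit known from the testis-type proteasome, stood at 0.44, 0.45 and 0.61 TPM with 61, 42 and 43 counts. Its mean was 0.0161 times the median of the core subunits. The thymus-type catalytic subunit Psmb11 had 0 counts in each library. With 3 counts as the limit for a count of 0, this allows up to 0.0565, 0.0688 and 0.0777 CPM, where CPM is a count divided by its library's size. Psmc3ip stood at 0.33, 0.49 and 0.36 TPM. These are the 3 genes under the detection level, and they are those whose known sites of action are the testis, the thymus and meiosis.

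Among the beta subunits without an active site, Psmb4 had the highest mean at 33.2, 32.4 and 44.9 TPM. Psmb1 had the lowest at 19.8, 18.9 and 28.0 TPM. The values of these genes do not overlap. Psmb2 (34.4 ± 6.08 TPM) and Psmb3 (25.1 ± 5.71 TPM; SD, n = 3) lay between them.

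The constitutive catalytic subunits were unequal (gene positions are those of mm10). Psmb6 (chr11:70525367-70527858, plus strand), which carries the caspase-like site (beta 1), stood at 100.0, 99.1 and 124.6 TPM. Psmb5 (chr14:54614119-54618022, minus strand), which carries the chymotrypsin-like site (beta 5), stood at 27.2, 29.1 and 35.7 TPM. Psmb7 (chr2:38588036-38644087, minus strand), which carries the trypsin-like site (beta 2), stood at 20.8, 21.4 and 29.3 TPM. Psmb6 was 3.59, 3.53 and 3.38 times the median of the core subunits in the same library, whereas Psmb5 was 0.975, 1.04 and 0.967 times and Psmb7 0.746, 0.762 and 0.795 times that median. Psmb6 counts were 5833, 4514 and 4183, so counting error is small beside this gap. Nek6 overlaps Psmb7 on the opposite strand over 6571 bases at 12.3 ± 3.51 TPM, and no source used here states the strand setting of the counting, so part of the Psmb7 signal cannot be assigned with certainty.

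The immune subunits showed a different order. Psmb8 (beta 5i, chr17:34197721-34201454, plus strand) stood at 48.6, 43.2 and 71.9 TPM. Psmb10 (beta 2i, chr8:105935735-105938444, minus strand) stood at 47.9, 39.4 and 69.4 TPM. Psmb9 (beta 1i, chr17:34181987-34187764, minus strand) stood at 19.4, 14.9 and 26.3 TPM. In each library Psmb8 and Psmb10 were close to each other and Psmb9 was below both. Psmb9 overlaps the peptide transporter gene Tap1 on the opposite strand over 212 bases, and Tap1 stood at 24.0 ± 4.98 TPM.

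Each immune subunit was then set against the constitutive subunit whose place it takes. At the beta 5 site, Psmb8 exceeded Psmb5 by log2 ratios of 0.84, 0.57 and 1.01, a mean of 0.80 ± 0.22 (SD, n = 3) or 1.75-fold. At the beta 2 site, Psmb10 exceeded Psmb7 by 1.20, 0.88 and 1.24, a mean of 1.11 ± 0.20 or 2.15-fold. At the beta 1 site the order was the opposite, since Psmb9 lay below Psmb6 with log2 ratios of -2.36, -2.73 and -2.24, a mean of -2.44 ± 0.25, which is 5.44-fold lower. Each of these ratios had the same sign in 3 of 3 libraries and a size over 3 times its SD, with an exact two-sided sign-flip permutation p of 0.25, the smallest that 3 libraries allow. The ratios were taken on the log2(TPM + 0.1) scale. Counting error alone came to between 0.0395 and 0.0498 per library, below the spread between libraries.

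Averaged over the 3 sites, the log2 ratio of immune to constitutive subunits was -0.11, -0.43 and 0.00, a mean of -0.18 ± 0.22 (SD, n = 3; exact permutation p = 0.5). This mean was within the spread between the libraries, and without replicate 2 it was -0.05. As a share of the TPM of all 6 catalytic subunits, the immune subunits took 43.9, 39.5 and 46.9%, or 43.4 ± 3.75%. With protein-coding transcripts alone, a calculation added after seeing the data, the share was 31.0 ± 3.68% (SD, n = 3). The sum hides the split between the sites, because Psmb6 was higher than either Psmb8 or Psmb10 in each library.

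**Figure D2:**
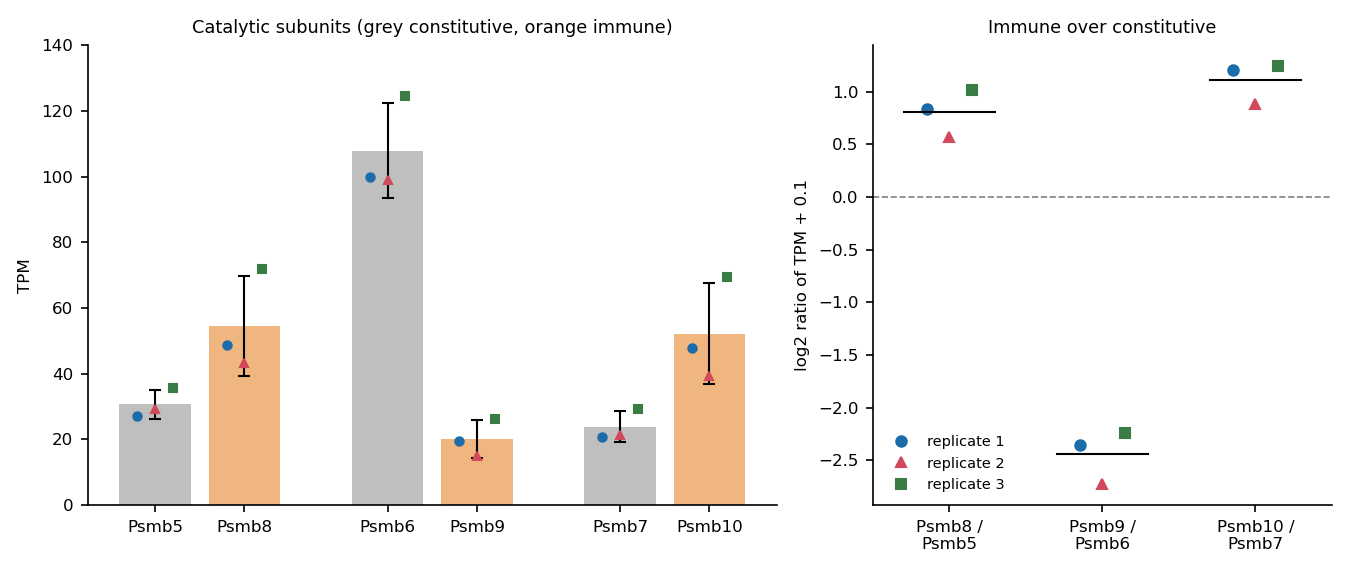
Left, TPM of the 6 catalytic subunits, with bars for the mean of 3 libraries, error bars for the SD and points for the replicates. Right, the log2 ratio of each immune subunit to the constitutive subunit it replaces, with all transcripts counted. Points lie above 0 for Psmb8 and Psmb10 and below 0 for Psmb9. With protein-coding transcripts alone, which are not drawn, the mean ratios of all 3 pairs were below 0.

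The direction at the beta 5 and beta 2 sites depends on which transcripts are counted, because much of the Psmb8 and Psmb10 signal was assigned to transcripts not annotated as protein-coding. For Psmb8 these took 47.7, 49.6 and 51.3% of the gene's TPM, and for Psmb10 61.8, 58.6 and 61.9%. For Psmb5 and Psmb7 the mean shares were 0.00 and 0.37%. With all transcripts Psmb8 and Psmb10 stood above the core median in each library. With protein-coding transcripts alone they had 27.4 ± 6.85 and 20.4 ± 5.37 TPM and were below that median, which was then 29.6 ± 4.82 TPM, in each library. On the same basis, the log2 ratio of Psmb8 to Psmb5 was -0.18 ± 0.21 and that of Psmb10 to Psmb7 was -0.23 ± 0.12 (SD, n = 3; exact permutation p = 0.25 each). With all counts of a gene divided by the length of its leading protein-coding transcript, a calculation chosen after seeing the data, they were 1.20 ± 0.22 and 0.22 ± 0.18. The deficit of Psmb9 against Psmb6 kept its direction under both calculations.

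The Psmb8 signal was divided almost evenly between a pair of transcripts. The protein-coding Psmb8-203 held 51.0, 48.2 and 47.0% of the gene's TPM and the retained-intron transcript Psmb8-205 held 46.5, 48.1 and 50.1%. Psmb8-205 keeps the intron at chr17:34199381-34199570 (190 bases, mm10, plus strand), which lies between coding exons of Psmb8-203. The sequences below show this boundary, with the bases of the retained intron in capitals.
Psmb8-203 (exon joined to exon): cagggagttacattagctccttaaggatga
Psmb8-205 (exon into the retained intron): cagggagttacattaGTGAGTATGTGTGCT
Psmb8-205 also runs 245 bases past the annotated end of Psmb8-203, to chr17:34201206-34201450, and so can take reads from there that the 840 bases of Psmb8-203 cannot. The tables do not say how many reads crossed the intron itself.

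For Psmb10 the leading transcript was Psmb10-203, annotated as a processed transcript, with 47.3, 51.4 and 50.3% of the gene's TPM, ahead of the protein-coding Psmb10-201 with 38.2, 41.4 and 38.1%. Psmb10-203 is 426 bases long and shares 378 of them with the 1311 bases of Psmb10-201. Its first exon, at chr8:105936982-105937025 (44 bases, mm10, minus strand), lies inside an intron of Psmb10-201. The sequence below joins that exon, in capitals, to the next exon, which both transcripts use.
Psmb10-203 (own exon to shared exon): CCTGCTCCTCCACAGgctctggtcagggtg
TPM divides by length, so a read weighs more in the shorter Psmb10 model than in the longer one.

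Across the 47 detected genes, 7 had more than 10% of their TPM on transcripts not annotated as protein-coding (14.9%, against 28.4% of all detected genes), and 4 had more than 30% (8.51%, against 11.2%). The share over 10% was below the background and that over 30% was near it. By their means the 7 genes included 3 of the 3 immune subunits, although Psmb9 was under 10% in replicate 3. Besides Psmb8 and Psmb10, the highest shares were those of Psma3 (56.3, 55.9 and 41.7%) and Psmd13 (38.7, 34.7 and 37.6%). Psmb6 had 13.7, 16.1 and 23.4%, Psme2 21.2, 18.9 and 13.1%, and Psmb9 14.1, 18.5 and 9.48%. The alignment-free tables, made from the same reads and the same transcript models, gave 4 genes over 30% and 8 over 10%. They differed most for the ATPase gene Psmc6, with 28.6 ± 9.41% against 5.44 ± 1.11%.

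**Figure D3:**
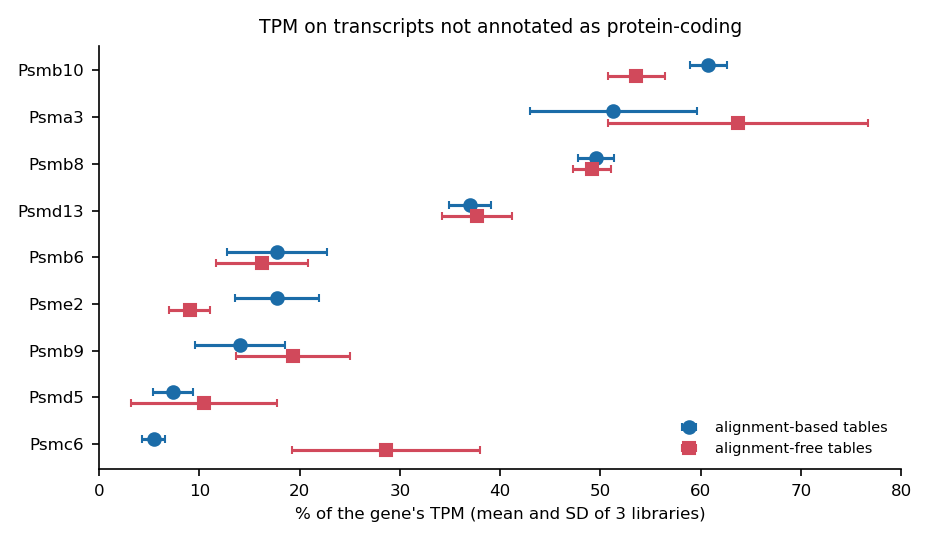
Percent of a gene's TPM on transcripts not annotated as protein-coding, for the 9 detected genes over 10% in either kind of table. Points are means of 3 libraries, error bars are SDs, and the tables agree within a few percent for Psmb8 and Psmd13 but not for Psmc6.

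In Psmd13 and in part of the Psma3 signal, small changes in splicing set the decay-target transcripts apart. The largest transcript of Psma3 outside the protein-coding class was the retained-intron Psma3-203, with 27.2, 34.3 and 28.02% of the gene's TPM. Psma3-201, annotated as a target of nonsense-mediated decay, lacks the 5 bases at chr12:70983319-70983323 (mm10, plus strand) and held 26.6, 18.9 and 10.9% of the TPM of Psma3. Psmd13-211, of the same class, skips the exon of 35 bases at chr7:140886388-140886422 (plus strand) and held 36.3, 28.96 and 36.4% of the TPM of Psmd13. Neither 5 nor 35 is a multiple of 3, so both changes shift the reading frame. The bases that each of these transcripts lacks are in capitals in the coding transcript of the pair, and the Psmd13 line shows the first 15 of the 35. For Psma3 the longest coding transcript, Psma3-202, is shown. The coding transcript with the largest share was Psma3-204, with 38.4, 40.3 and 54.2% of the gene's TPM.
Psma3-202 (coding): ggaaaacagtagTACAGctattgggatca
Psma3-201 (decay target): ggaaaacagtagctattgggatca
Psmd13-201 (coding): gatggtctcattaagCTTTATGAAAACTTC
Psmd13-211 (decay target): gatggtctcattaagggtaaaccctctgtc

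The median of the 17 subunits of the 19S particle lay below that of the core, although Psmd8, Psmd2 and Psmc3 were above the core median in each library. Their median was 18.2, 19.1 and 23.9 TPM, and the log2 ratio of the 19S median to the core median was -0.61, -0.55 and -0.62, a mean of -0.60 ± 0.04 (SD, n = 3). The 19S median was lower in 3 of 3 libraries, 1.51-fold on average (exact permutation p = 0.25). Among the 6 ATPases, Psmc3 was highest at 31.4, 31.9 and 40.1 TPM and Psmc6 lowest at 13.5, 13.4 and 18.4 TPM, without overlap. Slc39a13 overlaps Psmc3 on the opposite strand at 5.25 ± 0.72 TPM.

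Among the 11 non-ATPase subunits of the 19S particle, Psmd8, part of the lid, stood at 100.1, 80.8 and 107.1 TPM, which is 3.59, 2.88 and 2.90 times the core median. The next was Psmd2, a large subunit of the base, with a mean of 44.3 ± 6.02 TPM. Psmd12, also a lid subunit, was lowest at 10.9, 11.6 and 14.8 TPM. Psmd4, which binds ubiquitin chains, had 27.2 ± 2.98 TPM (SD, n = 3), and Psmd14, the deubiquitinase of the lid, stood at 17.9, 21.1 and 23.9 TPM. Psmd8 thus stood apart in the 19S particle as Psmb6 did in the core, and without Psmd8 the 19S median was 20.2 ± 3.17 TPM, against 20.4 ± 3.07 TPM with it.

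Alternative caps on the core particle were led by the interferon-associated activator PA28. Its alpha subunit Psme1 (chr14:55578123-55581529) stood at 51.0, 47.8 and 72.3 TPM, and its beta subunit Psme2 (chr14:55587441-55591113) stood at 61.7, 57.7 and 87.8 TPM. These neighbours on chromosome 14 were 1.83 ± 0.13 and 2.22 ± 0.16 times the core median. Psme3, the nuclear PA28 gamma, had 16.6 ± 1.92 TPM, and Psme4, the PA200 activator, had 11.1 ± 2.10 TPM. Psmf1, an inhibitor of the core particle, was lowest of this group at 4.36, 4.23 and 6.81 TPM.

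Psme2b is a near-copy of Psme2 and its values are uncertain. The coding sequences of Psme2-208 and Psme2b-201 are each 717 bases long and differ at 5 bases (99.3% identity), with an identical run of 311 bases. Coding bases 514 to 543 hold 2 of the 5 differences, in capitals below.
Psme2-208 (chr14, minus strand): ggggaCgctgtagccaaggcttccaaggaC
Psme2b-201 (chr11, minus strand): ggggaTgctgtagccaaggcttccaaggaT
Psme2b stood at 12.3, 12.7 and 18.02 TPM in the alignment-based tables. It also overlaps 9930111J21Rik1 on the same strand over 41 bases. That gene stood at 16.1 ± 4.92 TPM, so reads there may be split between the genes. The alignment-free tables, scaled to coding genes, moved Psme2b up by 0.68 and Psme2 down by 0.30 on the log2 scale. The Psme2 share on transcripts not annotated as protein-coding also differed between the tables (17.7 and 9.04%), and the cause was not tested. Psmb11 aside, which lies at or under the floor of 3 counts, the next largest gaps between the quantifications were those of Psmd5 at 0.28 and Psmf1 at 0.27.

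Assembly chaperones, which build the particles and leave the finished proteasome, were the lowest of the role groups. The 7 genes had a median of 4.26 ± 0.33 TPM. Psmg4, part of a dimer that helps the alpha ring form, was highest at 11.1, 9.57 and 14.9 TPM. Psmd5, a chaperone of the ATPase ring, had the lowest mean at 3.41, 3.13 and 3.61 TPM. The other alpha-ring chaperones Psmg1 (3.59 ± 0.36 TPM), Psmg2 (3.45 ± 0.40 TPM) and Psmg3 (4.26 ± 0.33 TPM) stayed below Psmg4, as did the ATPase-ring chaperones Psmd9 (5.17 ± 0.41 TPM) and Psmd10 (7.13 ± 1.49 TPM). Pomp, the maturation factor of the core particle, which lies outside the symbol rule, stood at 44.2, 40.5 and 53.6 TPM, above all 7.

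Between the libraries the proteasome genes varied little. With counts scaled by TMM factors and a mean count of at least 100, none of the 47 genes passed 1.5-fold between any pair of libraries. Over all 10348 genes of that depth, 4.89% passed it between replicates 2 and 1, 2.68% between replicates 3 and 1, and 7.8% between replicates 3 and 2. With 1 library on each side these counts describe the libraries and no test exists. The median SD of log2 CPM over the 3 libraries was 0.07 for the 47 genes and 0.11 for all 10348. These backgrounds are not matched for level. The proteasome genes had a median at the 79.0th percentile of detected genes, and counting error is larger at lower counts. The part of depth in their smaller spread was not tested. Psmb5 had the smallest SD, 0.0046, followed by Psmd13 at 0.00826.

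The immune subunits were among the most variable. The largest SDs among the 47 genes were those of Psmb9 (0.27), Psmb10 (0.24), Psmb8 (0.22), Psmd8 (0.22) and Psmg4 (0.20), and 7 of the 47 lay above 0.17, the upper quartile of all 10348 genes. Relative to its own mean over the libraries, Psmb8 stood at 0.01, -0.23 and 0.22 in log2 CPM in replicates 1 to 3. Psmb9 stood at 0.16, -0.31 and 0.15, and Psmb10 at 0.06, -0.27 and 0.21. Psme1 (0.02, -0.16 and 0.14) and Psme2 (-0.02, -0.18 and 0.20) were also lowest in replicate 2. The low value was not particular to immune genes, since Psmg4 (-0.23), Psmb3 (-0.20), Psmb2 (-0.17) and Psma4 (-0.15) were lowest there too, as were 4 of the 4 beta subunits without an active site. Of the 47 genes 30 were lowest in replicate 2, against 43.5% of all genes, and 21 were lowest in replicate 2 and highest in replicate 3, against 25.8%. All 5 of these genes were lowest in replicate 2 under TMM, DESeq2 and library-size scaling and in the alignment-free counts. The non-immune catalytic subunits Psmb5 (-0.01, 0.00 and 0.00), Psmb6 (0.06, -0.04 and -0.02) and Psmb7 (-0.02, -0.06 and 0.08) stayed within 0.1 of their means. Psmd8 was highest in replicate 1 (0.24, -0.18 and -0.06), as was Psmb9 by a small margin (0.16 against 0.15 in replicate 3). Psmb8, Psmb10, Psme1 and Psme2 were highest in replicate 3. The summed neutrophil markers were highest in the same replicate 2, and their part in these values was not tested. In bulk RNA, fewer cells of a type and less RNA per cell cannot be told apart.

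**Figure D4:**
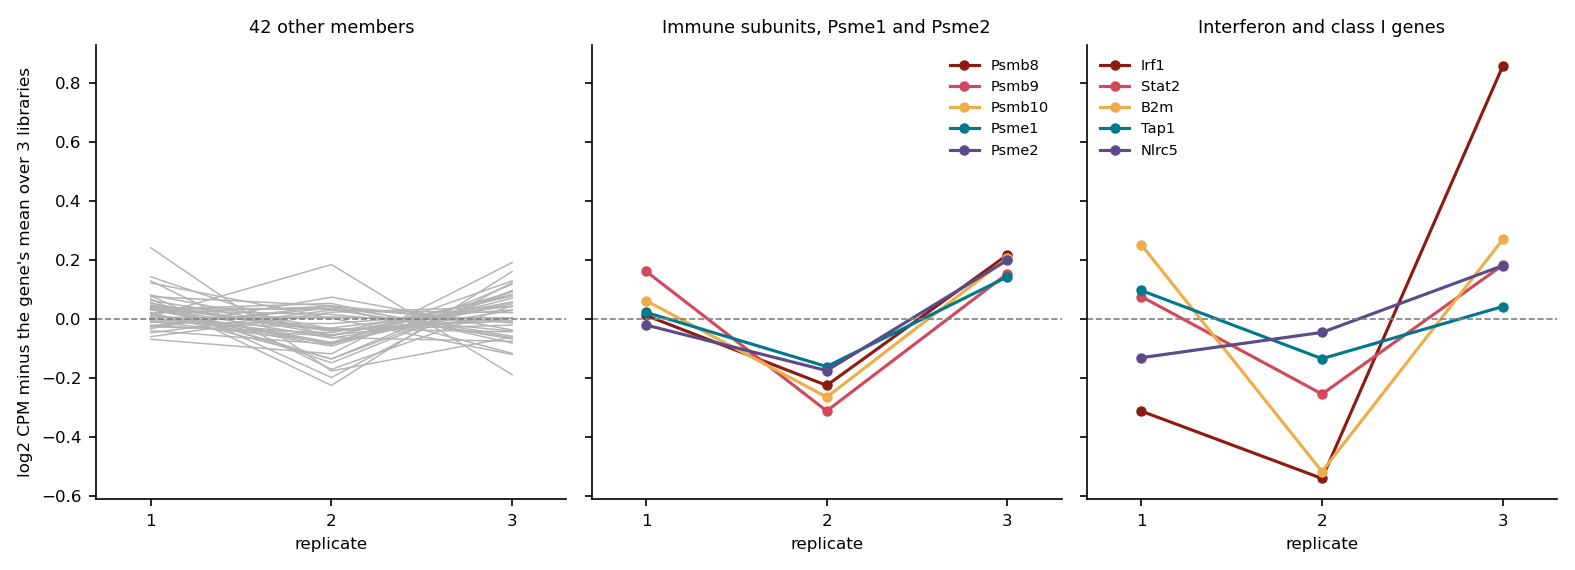
Log2 CPM of each gene minus its mean over the 3 libraries, with lines joining the values of 1 gene across replicates that have no order. The left panel shows the 42 other detected proteasome genes and the middle panel Psmb8, Psmb9, Psmb10, Psme1 and Psme2, all lowest in replicate 2. The right panel shows Irf1, Stat2, B2m, Tap1 and Nlrc5, a selection from the interferon and MHC class I lists. Of these, Irf1 and B2m span the widest range. Listed genes not drawn include Calr, Canx and Pdia3, which were highest in replicate 2, and Irf8 and Ifnar2, which changed little.

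Genes of MHC class I antigen processing, which handle the peptides that proteasomes make, were all detected (11 of 11). B2m, the light chain of MHC class I, had the highest mean at 1726, 1077 and 2271 TPM, and Nlrc5, a transcriptional activator of class I genes, had the lowest mean at 7, 8.63 and 13.2 TPM. Of the 11 genes, 7 were lowest in replicate 2, against 43.5% of all genes of mean count 100 or more. B2m was 1.73-fold higher in replicate 3 than in replicate 2. It was the only member of the list past 1.5-fold there, against 7.8% of all such genes. Tap1 stood at 22.7, 19.9 and 29.6 TPM, and in scaled counts it was lowest in replicate 2 as its neighbour Psmb9 was. The lectin chaperones Calr, Canx and the thiol reductase Pdia3, which also serve glycoproteins in general, were highest in replicate 2, at 0.22, 0.11 and 0.10 above their means in log2 CPM.

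Of 13 interferon genes, 11 were detected. Irf1, a factor known to act on Psmb8, Psmb9 and Psmb10, stood at 42.3, 41.1 and 120.4 TPM. Its value in replicate 3 was 2.64-fold that in replicate 2 in scaled counts. It was the single gene of the list past 1.5-fold there, against 7.8% of all genes of mean count 100 or more. The cytokine genes themselves were near 0, with Ifng at 0.00 TPM in each library and Ifnb1 at 0.04, 0.05 and 0.09 TPM. The receptor chains Ifnar1 (20.5 ± 3.37 TPM), Ifnar2 (51.1 ± 7.95 TPM), Ifngr1 (39.2 ± 9.04 TPM) and Ifngr2 (23.4 ± 4.73 TPM) were present.

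Nfe2l1, the gene of NRF1, the factor known to drive proteasome genes when proteasome activity falls, stood at 29.1, 31.2 and 32.5 TPM. All 10 genes of the list around it were detected. Its processing protease Ddi2 stood at 13.1 ± 2.88 TPM and the deglycosylase Ngly1 at 6.92 ± 1.12 TPM. The small Maf partner Mafk had the lowest mean at 6.09, 5.84 and 8.14 TPM, and Maf, a macrophage factor of the same family, had the highest mean at 93.5, 83.2 and 126.3 TPM. The related Nfe2l2, the gene of NRF2, stood at 81.0, 72.3 and 132.5 TPM. At 1.52-fold, it was the single gene of the list past 1.5-fold between replicates 3 and 2. Over all genes of mean count 100 or more, 7.8% passed it. Proteasome components with other symbols were detected in 10 of 10 cases, with 0 past 1.5-fold between replicates 3 and 2. Pomp was the highest and Ube3c, a ubiquitin ligase bound to the proteasome, the lowest at 4.95, 5.25 and 6.18 TPM.

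Promoter windows from RefSeq (GRCm38.p6, 250 bases before to 50 after the start) were at hand for 42 of the 50 genes and were searched on both strands for 3 motifs. The pattern TGACNNNGC, the core of the antioxidant response element to which NRF1 and NRF2 bind, was in the windows of 6 genes (14.3%, against 13.99% of the 27025 genes with a window). Psmb5 and Psmb6 were among them, with Psmc6, Psmd9, Psmd12 and Psme4. The palindrome TTCNNNGAA of STAT factors was in the windows of Psmb8, Psmd2 and Psmg1 (7.14%, against 9.55%). The interferon-type repeat GAAANNGAA was in those of Psmb3, Psmb4, Psmc2, Psmd4, Psmd9, Psme1 and Psmg4 (16.7%, against 9.76%). Psmd9 held 2 of the motifs, at separate places. These shares are descriptions, and a match is not a binding site. The matches at the catalytic subunits and at Psme1 are shown with the motif in capitals, since these are the genes compared above.
Psmb5 (chr14:54618024-54618052, minus strand, TGACNNNGC): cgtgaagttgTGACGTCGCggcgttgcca
Psmb6 (chr11:70525338-70525366, plus strand, TGACNNNGC): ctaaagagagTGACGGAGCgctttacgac
Psmb8 (chr17:34198088-34198116, plus strand, TTCNNNGAA): tcctccgctgTTCCCAGAAgatgcccccc
Psme1 (chr14:55578494-55578522, plus strand, GAAANNGAA on the opposite strand): gagctgtgctTTCGCTTTCccttcccgct
The Psmb5 match began 47 bases before the RefSeq start, the Psmb6 match 9 bases before it and the Psmb8 match 97 bases before it, while the Psme1 match lay just after its start. The transcript Psmb8-203 begins at chr17:34197721, before the RefSeq start of Psmb8, so the Psmb8 match is not upstream of that transcript. Psme1-208, the leading transcript of Psme1, begins at chr14:55578360, also before the RefSeq start. The Psme1 match thus lies further past the start of Psme1-208 than past the RefSeq start. The windows of Psmb9 and Psmb10 held none of these letters. The constitutive subunit Psmb7 was not among the genes with a match either. The RefSeq starts of Psmb9 and Tap1, which point away from each other on chromosome 17, are 226 bases apart.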

How the data were processed

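Total RNA-seq libraries (3) of the cytosolic fraction were used. Per the deposited text files, the assembly was mm10 and the annotation GENCODE M21. Per the file headers, the authors deposited alignment-based gene and transcript tables with RSEM-type columns (expected counts, TPM, percent of a gene's TPM per transcript, and interval bounds of TPM, treated as a signal) and alignment-free transcript tables with kallisto-type columns (estimated counts, TPM). The deposited counts are not normalized, and deposited TPM is scaled to a fixed sum per table. No source used here gives tool versions or strandedness. Rows that are not genes held 0.186, 0.167 and 0.0395% of expected counts and were left out of library sizes.

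The members and lists were chosen with earlier results of these data known. Genes were compared within libraries by log2(TPM + 0.1), with an exact two-sided sign-flip permutation test over the 3 libraries. Expected counts were rounded and scaled by TMM in edgeR 4.0.16 (R 4.3.3, prior count 2, 12744 genes after filterByExpr, common biological coefficient of variation 15.2%), with DESeq2 1.42.0 size factors as an alternative. Comparisons between libraries took genes whose mean count was at least 100, and this scaling was tested on simulated data. Python 3.11.15, pandas 2.3.3 and matplotlib 3.10.9 did the remainder. Named with values are the catalytic subunits, the highest and lowest gene of each role group and related list, genes under 1 TPM, the 5 genes with the largest SD and the 5 with the largest gap between quantifications. Some listed genes are not reported here. Others named, such as those with splice variants, were chosen after their values were seen. Alternatives were other pseudocounts, detection levels, scalings and count minimums, the alignment-free tables, protein-coding transcripts alone, and each replicate left out. Limits for a count of 0 stand for 3 counts and, like counting errors, cover counting alone, because without molecular identifiers repeated reads of a molecule cannot be recognised. Transcript sequences are from GENCODE M21 and promoter sequences from RefSeq.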

Additional observations from a re-analysis of the deposited data

How the results depend on the processing

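The values were recomputed under other settings, and 65 of 73 recomputed values kept their direction and moved by less than the spread between libraries (counts by less than 1.5 times). Some of these could not have come out otherwise. Omitting a replicate cannot move a mean of 3 values by its full SD. With no gene past 1.5-fold, none could pass 2-fold, and a minimum of 1 TPM removed no 19S or core subunit. The tally is therefore not a measure of robustness. With protein-coding transcripts alone, the log2 ratio of Psmb8 to Psmb5 turned to -0.18, that of Psmb10 to Psmb7 turned to -0.23, and the mean over the 3 sites fell to -0.93. With counts over the length of the leading protein-coding transcript, chosen after seeing the data, the ratios were 1.20 for Psmb8 to Psmb5 and 0.22 for Psmb10 to Psmb7. The ratio of Psmb9 to Psmb6 stayed between -2.54 and -2.30 with any replicate left out. In the alignment-free tables the log2 ratio of 19S to core subunits was -0.55. With a mean count of 20 or no filter on counts, 1 gene, Psmc3ip, passed 1.5-fold between replicates 3 and 2 (0.55-fold). Leaving out a replicate put the mean ratio over the 3 sites between -0.27 and -0.05, the latter without replicate 2. Between 41 genes at 5 TPM and 49 with TPM scaled to nuclear protein-coding genes were detected. Genes were paired within libraries in the sign-flip test. No pairing of libraries between conditions was possible because the 3 libraries form a single group. Depth limits Psmb11, Psma8 and Psmc3ip, and 3 libraries cannot give a sign-flip p under 0.25.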

Other observations

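The genes that make, attach to or carry ubiquitin for the proteasome were all detected. Rps27a (290, 266 and 389 TPM in replicates 1 to 3), which codes for ubiquitin fused to a ribosomal protein, and Ubb (208, 179 and 335 TPM), which codes for linked copies of ubiquitin, both stood above every proteasome gene in each library. Ubb was 1.51-fold higher in replicate 3 than in replicate 2 in scaled counts. Of the ubiquitin-activating enzymes, Uba1 had 33.1 ± 6.37 TPM and Uba6 3.98 ± 0.76 TPM (SD, n = 3), so the levels of these genes do not overlap.

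Among 8 shuttle and segregase genes, Vcp, the ATPase that pulls ubiquitinated proteins out of complexes and membranes, was highest at 52.7, 65.0 and 70.2 TPM. Ubqln4 was lowest at 6.07, 6.00 and 7.98 TPM. The shuttle factor Rad23b (19.3 ± 3.34 TPM) lay near the level of the 19S subunits, whose median was 20.4 ± 3.07 TPM. None of the 8 passed 1.5-fold between replicates 3 and 2, against 7.8% of all genes of mean count 100 or more.

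Of the 4 pseudogenes with Psm symbols (Psmb5-ps, Psmb6-ps, Psmb6-ps2 and Psmb7-ps2), each had 0 counts in all 3 libraries.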
